A study of Mus musculus with 2 samples.

Results

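A set of 7 microRNA (miRNA) genes with a known preference for epithelial cells was followed in embryonic mouse midbrain: the 5 genes of the Mir200 family, which lie in one cluster of 3 genes (Mir200b, Mir200a and Mir429) on chromosome 4 and one of 2 genes (Mir200c and Mir141) on chromosome 6, and the single genes Mir203 and Mir205. They were chosen by gene symbol, and all 7 were found among the 1973 miRNA genes of the deposited tables. Short RNA, under 30 bases by the labels' size range, was sequenced from midbrain of B6NCrl embryos at 15.5 days of development, with tissue of male and female embryos pooled and described as healthy. There is 1 group of 2 biological replicates, replicate 1 from 78 embryos and replicate 2 from 62, with no treatment and no other tissue, so the comparisons are between genes within a library and between the pools. Sense reads at miRNA genes came to 3429704 in replicate 1 and 5752476 in replicate 2. Levels are CPM, the reads of a gene scaled by that total, so that a single read counts for 0.292 CPM in the first library and 0.174 CPM in the second. Where a range is given for a single library it is the exact Clopper-Pearson interval at 95%, which covers counting error only.

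miRNAs are cut from hairpin transcripts and guide silencing proteins to messenger RNAs, mostly through bases 2 to 8 of the mature strand, the seed. The Mir200 family and Mir205 are best known for holding epithelial cells in their state by repressing Zeb1 and Zeb2, transcription factors that shut off E-cadherin. Mir203 is known from skin, where it represses the stem cell factor p63, and Mir205 from skin and other stratified or glandular epithelia. In the nervous system the Mir200 family is best known from the olfactory epithelium and from the exit of neural progenitors from the cell cycle.

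The mature strands are shown first because the family divides by 1 base of the seed. The sequences are from RefSeq (GRCm38.p6), which held 14 mature strands of 21 to 23 bases for the 7 genes. They are written 5′ to 3′ with the seed in capitals, as the 3p strand of each Mir200 gene, the 3p strand of Mir203 and the 5p strand of Mir205.
mmu-miR-200b-3p: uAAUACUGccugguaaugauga
mmu-miR-429-3p: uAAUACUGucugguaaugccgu
mmu-miR-200c-3p: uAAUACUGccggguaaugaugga
mmu-miR-200a-3p: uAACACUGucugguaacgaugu
mmu-miR-141-3p: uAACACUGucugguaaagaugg
mmu-miR-203-3p: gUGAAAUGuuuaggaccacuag
mmu-miR-205-5p: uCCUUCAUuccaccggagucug

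Counted from 1 at the 5′ end, the seeds AAUACUG (Mir200b, Mir429 and Mir200c) and AACACUG (Mir200a and Mir141) differ by U4C. Each seed crosses the clusters, with AAUACUG and AACACUG genes on both chromosomes. The complementary letters that a target would carry are CAGUAUU for the first seed and CAGUGUU for the second. None of the 10 different seeds on the 14 strands occurred on a mature strand of another gene among the 1738 in the table. The closest 3p strands of different clusters were those of Mir200b and Mir200c, which matched at 20 of 22 positions (U11G and A22G), and those of Mir200a and Mir141, which also matched at 20 (C17A and U22G). Even so, no stretch of 18 bases of any of the 14 strands occurred in another miRNA transcript of GENCODE M21, so an exact match over 18 bases assigns a read to 1 of these genes among annotated miRNAs. Reads shorter than 18 bases were not checked, and the 3p strands of Mir200a and Mir141 share a stretch of 16 bases. Which mismatches the authors' alignment allowed is not given in the sources used here. Whether reads with mismatches were exchanged between Mir200b and Mir200c or between Mir200a and Mir141 was not tested, and the orders within these pairs and the ratio of the clusters rest on that assignment. The counts do not separate the 3p from the 5p strand of a hairpin.

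On mm10, the chromosome 4 cluster covers 1846 bases at chr4:156053905-156055750 on the minus strand. In the direction of transcription it runs from Mir200b over a gap of 695 bases to Mir200a and over 908 bases to Mir429. All 3 lie in an intron of Ttll10, a gene for a tubulin-modifying enzyme. They also lie within the noncoding transcript Gm13648, with Mir429 in its exon and Mir200b and Mir200a in an intron. The chromosome 6 cluster covers 477 bases at chr6:124717914-124718390, also on the minus strand, with Mir200c first, a gap of 336 bases and then Mir141. Both lie in an intron of the noncoding gene Gm15884, and Mir141 overlaps an exon of the unclassified transcript Gm29008. Mir203 is at chr12:112130880-112130955 on the plus strand, in no other gene of GENCODE M21 and 3321 bases from Aspg. RefSeq places the mature strands of miR-203b within it on the minus strand. Mir205 is at chr1:193507463-193507530 on the minus strand, in an exon of the long noncoding RNA 4631405K08Rik.

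Mir203 was by far the highest of the 7, and the Mir200 genes and Mir205 were far below it. Among all genes with a read, the mean of Mir203 lay above 84.0% of them, that of Mir429 above 66.4% and that of Mir200a above 41.1%. Together the 7 genes gave 657 CPM in replicate 1 and 803 CPM in replicate 2, 730 ± 104 CPM (SD, n = 2), and Mir203 supplied 86.5% (85.0 to 87.8) and 79.0% (77.8 to 80.2) of it. A read holds a whole mature strand, so counts were not divided by length. The order below is of counts and not of molecules. In bulk tissue, fewer cells of a type and less RNA per cell cannot be told apart.

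Mir203 had 1948 reads in replicate 1 and 3651 in replicate 2, or 568 CPM (543 to 594) and 635 CPM (614 to 656). Its mean of 601 ± 47.2 CPM put it at rank 115 among all genes, between Mir350 (604 ± 23.0 CPM) and Mir138-2 (593 ± 20.2 CPM), both within its replicate spread. The next of the 7 by mean level, Mir429, was at rank 241.

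Mir429, the last gene of the chromosome 4 cluster, had 127 and 345 reads, or 37.0 CPM (30.9 to 44.1) in replicate 1 and 60.0 CPM (53.8 to 66.6) in replicate 2. Mir205 had 61 and 333 reads, or 17.8 CPM (13.6 to 22.8) and 57.9 CPM (51.8 to 64.5). Mir429 was therefore above Mir205 in replicate 1 and at nearly its level in replicate 2, and their ranges over the libraries overlapped. Mir200c, the first gene of the chromosome 6 cluster, had 72 and 152 reads, or 21.0 CPM (16.4 to 26.4) and 26.4 CPM (22.4 to 31.0). Mir205 over Mir200c was 0.847 times (0.592 to 1.21) in replicate 1, where the interval includes equality. In replicate 2 it was 2.19 times (1.80 to 2.67), so only replicate 2 sets these neighbours apart. Mir200b had 35 and 97 reads, or 10.2 CPM (7.11 to 14.2) and 16.9 CPM (13.7 to 20.6), below Mir200c in both libraries with ranges that did not overlap.

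The AACACUG genes were the lowest of the 7 in both libraries. Mir141 had 7 and 28 reads, or 2.04 CPM (0.821 to 4.21) and 4.87 CPM (3.23 to 7.03). Mir200a had 3 and 15 reads, or 0.875 CPM (0.180 to 2.56) and 2.61 CPM (1.46 to 4.30), which in replicate 1 is the floor of 3 reads used here as the limit of detection. Mir141 was above Mir200a in both libraries, by 2.33 times (0.533 to 14.0) and 1.87 times (0.964 to 3.76), and these counting intervals include equality. The gap from Mir200b down to Mir141 was clearer, at 5.00 and 3.46 times, with ranges that did not overlap.

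**Figure D1:**
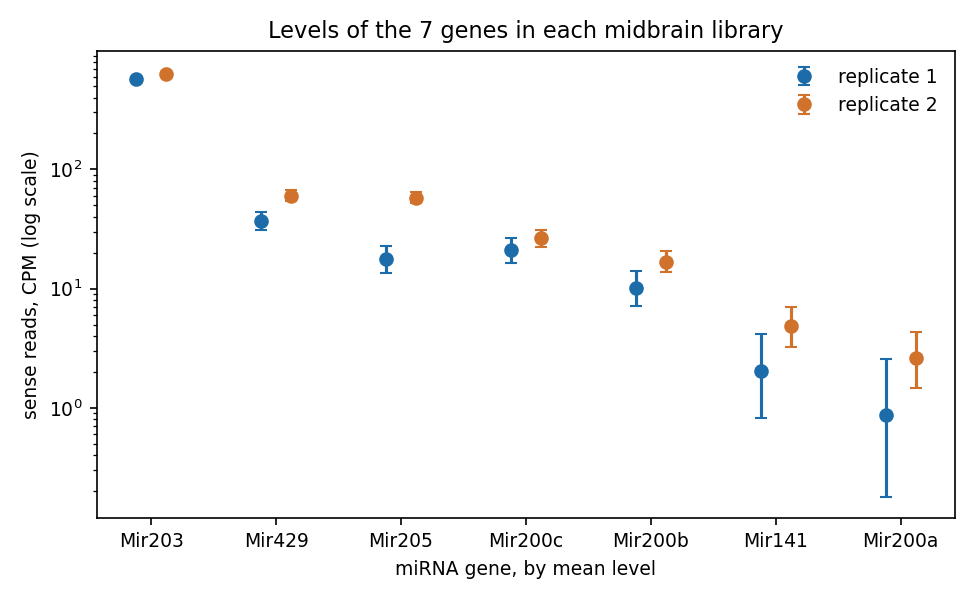
Sense reads in CPM on a log axis for the 7 genes, ordered by mean level, in replicate 1 (blue) and replicate 2 (orange), with 95% counting intervals. Mir203 stands at 568 and 635 CPM, Mir141 at 2.04 and 4.87 CPM and Mir200a at 0.875 and 2.61 CPM.

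Neighbours in level over the whole table place the lower genes. Next above and below Mir429 (mean 48.5 ± 16.2 CPM, rank 241) were Mir190a (49.9 CPM) and Mir6236 (48.3 CPM). Mir205 (37.8 ± 28.4 CPM, rank 260) stood between Mir1224 (38.0 CPM) and Mir152 (37.7 CPM). Mir200c (23.7 ± 3.84 CPM, rank 278) stood between Mir193b (24.5 CPM) and Mir26a-2 (23.3 CPM), and Mir200b (13.5 ± 4.71 CPM, rank 301) between Mir206 (13.8 CPM) and Mir8114 (13.2 CPM). Mir141 (3.45 ± 2.00 CPM, rank 360) lay beside Mir450-1 (3.46 CPM) and Mir7226 (3.43 CPM), and Mir200a (1.74 ± 1.23 CPM, rank 422) beside Mir6998 (1.75 CPM) and Mir7059 (1.69 CPM). Each of these gaps was smaller than the member's own SD. The SD of Mir205 was 74.9% of its mean and that of Mir203 7.84%, so the mean of Mir205 describes neither library.

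The chromosome 4 cluster was counted at more than the level of the chromosome 6 cluster in both libraries. Summed over its genes, the chromosome 4 cluster had 48.1 CPM (41.0 to 56.0) and 79.4 CPM (72.3 to 87.1) in replicates 1 and 2, against 23.0 CPM (18.2 to 28.7) and 31.3 CPM (26.9 to 36.2) for the chromosome 6 cluster. In the same order the ratio was 2.09 (1.59 to 2.77) and 2.54 (2.13 to 3.03), a log2 ratio of 1.20 ± 0.20 (SD, n = 2). Both counting intervals lie above 1 and they overlap each other. A permutation of 2 values against 2 cannot reach a two-sided p under 0.333, so no such test was made. Mir429 alone had more reads than the whole chromosome 6 cluster, and it exceeded Mir200c by 1.76 times (1.31 to 2.39) and 2.27 times (1.87 to 2.77). Mir200b, whose 3p strand is closest to that of Mir200c, had fewer reads than Mir200c in both libraries.

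Within the chromosome 4 cluster the levels of the 3 genes differed widely, and the counting intervals of their shares overlapped between the pools. Mir429 held 77.0% (69.8 to 83.2) of the cluster's 165 reads in replicate 1 and 75.5% (71.3 to 79.4) of its 457 reads in replicate 2. Mir200b held 21.2% in each, with intervals of 15.2 to 28.2 and 17.6 to 25.3. Mir200a, which lies between them, held 1.82% (0.376 to 5.22) and 3.28% (1.85 to 5.36). The order along the transcript was therefore not the order of the counts: the middle gene was lowest and the last was highest. Mir429 exceeded Mir200b by 3.63 times (2.48 to 5.44) and 3.56 times (2.83 to 4.50), and it exceeded Mir200a by 42.3 times (14.2 to 208) and 23.0 times (13.8 to 41.5).

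The chromosome 6 cluster had the same arrangement of seeds, with the AAUACUG gene high and the AACACUG gene low. Mir200c held 91.1% (82.6 to 96.4) of 79 reads in replicate 1 and 84.4% (78.3 to 89.4) of 180 reads in replicate 2, and Mir141 held the rest, 8.86% and 15.6%. Mir200c exceeded Mir141 by 10.3 times (4.74 to 26.5) and 5.43 times (3.61 to 8.44). Over the family, the AACACUG genes together held 4.10% (1.98 to 7.41) of 244 reads in replicate 1 and 6.75% (4.93 to 8.99) of 637 reads in replicate 2. The AAUACUG genes were therefore counted 23.4 times (12.5 to 49.4) and 13.8 times (10.1 to 19.3) as often as the AACACUG genes. For each share of the family or of its clusters, the counting intervals of the pools overlapped, which does not show that the shares were equal.

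**Figure D2:**
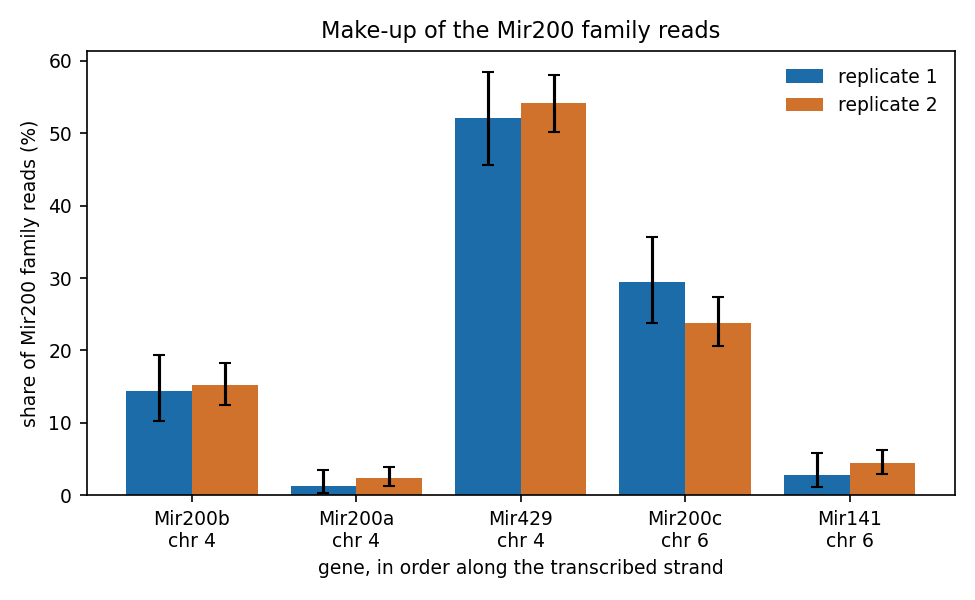
Share of all Mir200 family reads (%) held by each gene, in order along the transcribed strand within each chromosome, in replicate 1 (blue, 244 reads) and replicate 2 (orange, 637 reads), with 95% counting intervals as bars. Mir429 holds 52.0% and 54.2%, Mir200c 29.5% and 23.9%, Mir200b 14.3% and 15.2%, Mir141 2.87% and 4.40%, and Mir200a 1.23% and 2.35%.

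The single genes did not keep a fixed proportion to each other. Mir203 was counted 31.9 times (24.8 to 41.9) as often as Mir205 in replicate 1 and 11.0 times (9.80 to 12.3) in replicate 2, and these intervals do not overlap. The log2 ratio was 4.23 ± 1.09 (SD, n = 2). Against the summed Mir200 family, Mir203 was 7.98 times (6.99 to 9.16) as high in replicate 1 and 5.73 times (5.27 to 6.24) in replicate 2. The single genes share no seed with each other or with the Mir200 family.

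Mir205 was higher in replicate 2, Mir429 and Mir203 were higher there by smaller amounts, and the other 4 genes did not pass the test. Folds are replicate 2 over replicate 1 after TMM scaling, which lowered the CPM ratio of every gene by 1.02 times, and each gene was put to an exact binomial test, two-sided and conditional on its reads in both libraries, adjusted by Benjamini-Hochberg over all 717 genes that had a read. That test compares these libraries beyond counting error and has no replicate check, since each pool is 1 library. Mir205 was 3.18-fold higher in replicate 2 (2.41 to 4.25, adjusted p = 1.89e-19 in the exact binomial test). Its log2 ratio of 1.62, computed with a pseudocount of 1 CPM, was the highest of the 717. Mir3101, on 0 and 12 reads, followed at 1.61. The rank depends on the pseudocount: without one, Mir7064 had a larger fold, 9.32, on 1 and 16 reads. Mir429 was 1.58-fold higher (1.29 to 1.96, adjusted p = 4.41e-05 in the exact binomial test). Mir203, the most deeply counted, was 1.09-fold higher (1.03 to 1.15, adjusted p = 0.0110 in the exact binomial test).

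Among the genes that did not pass, the fold was 1.61 (1.09 to 2.45, adjusted p = 0.0698) for Mir200b, almost that of its neighbour Mir429. Mir200c had a fold of 1.23 (0.923 to 1.65, adjusted p = 0.440), Mir141 of 2.33 (0.995 to 6.32, adjusted p = 0.190) and Mir200a of 2.91 (0.824 to 15.7, adjusted p = 0.298), all by the exact binomial test. The wide intervals of Mir141 and Mir200a rest on 7 and 3 reads in replicate 1. At that depth their folds did not pass the test although they were larger than that of Mir429. The smallest difference detectable there was not tested.

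**Figure D3:**
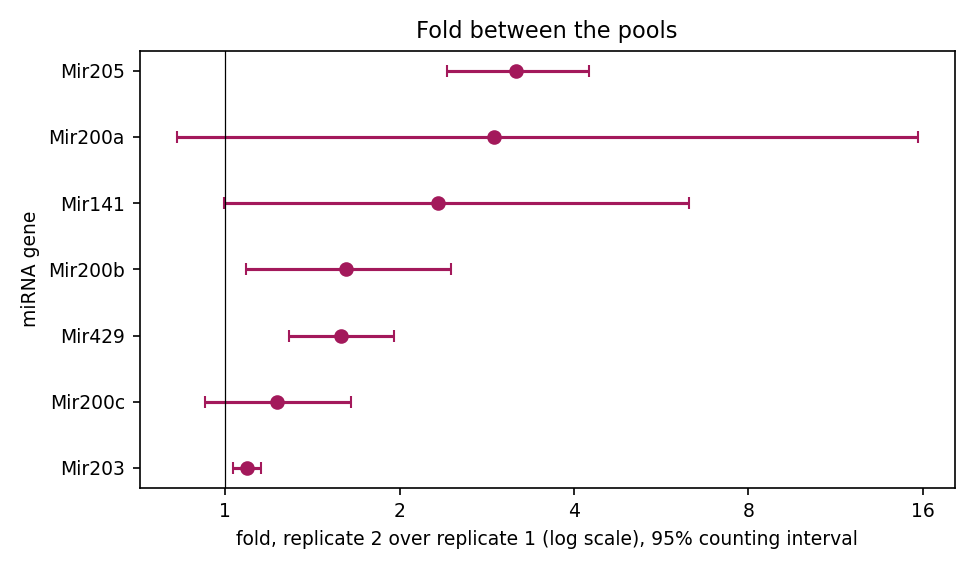
Fold of each gene, replicate 2 over replicate 1 after TMM scaling, on a log axis with 95% counting intervals, and a line at 1. The intervals of Mir205, Mir200b, Mir429 and Mir203 lie above 1, and those of Mir141, Mir200a and Mir200c include it.

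By this rule 3 of 7 genes were called, all of them higher in replicate 2, against 9.76% of all genes tested in that direction and 19.8% in either. All 7 had a log2 ratio above 0, as did 53.6% of all genes tested, and all 7 passed the filter of having a read. Only 474 of the 717 had a mean of at least 1 CPM, so the share over all genes includes many with few reads. Among genes within 2-fold of the mean level of Mir203, 30.1% of 73 were called higher in replicate 2, against 12.5% of 72 around Mir429 and 12.7% of 63 around Mir205. A call at the level of Mir203 was thus more frequent than over all genes. The median log2 ratio of the 7 was 0.65 with a pseudocount of 1 CPM and 0.30 with one of 10 CPM, and that of all genes tested was 0.036 with the first. The 7 were named with earlier results of these data known, so these counts are a description of the genes and of these pools.

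Calls at this depth follow counting error and not the spread between pools. edgeR's exact test with a coefficient of variation of 10% between pools called 1 of the 7, Mir205 (3.18-fold, adjusted p = 1.93e-06 by that test), against 0.279% of all genes in that direction, and gave an adjusted p of 0.462 for Mir429 and 1 for Mir203. With a coefficient of variation of 20% it called none of the 7 and no other gene, and the adjusted p of Mir205 was 0.213.

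**Figure D4:**
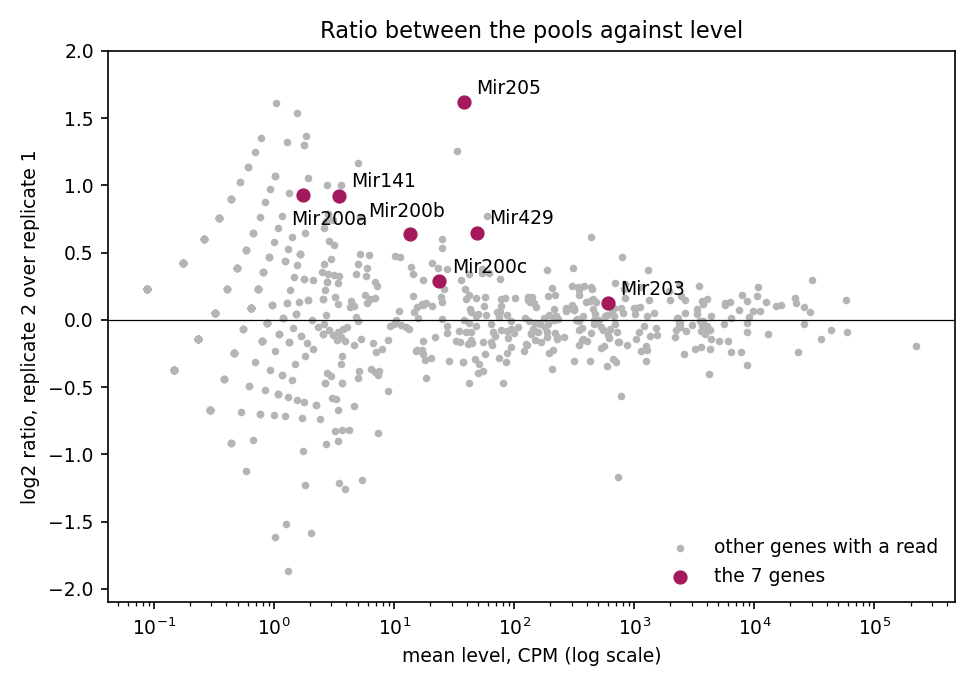
The log2 ratio of replicate 2 over replicate 1 (TMM scaling, pseudocount 1 CPM) against mean level in CPM on a log axis, for the 717 genes with a read (grey) and the 7 genes (purple, named). All 7 lie above 0, Mir205 is the highest point at 1.62 with that pseudocount, and Mir203 lies close to 0 at 0.13.

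Over 2 libraries the pattern of a gene is its 1 ratio between the pools, and likeness was taken as the nearest log2 ratio among the 308 genes whose mean reached 10 CPM. The measure uses point values and leaves out their counting intervals. For Mir200b the fold interval ran from 1.09 to 2.45 and for Mir200c from 0.923 to 1.65, so nearness does not show a shared pattern. By that measure Mir200b (0.64) and Mir429 (0.65) were nearest to each other. Each had Mir10b (0.62), a gene of the Hox clusters, as the next nearest. Mir205 (1.62) had no near gene: Mir208b, known from heart and slow muscle, followed at 1.25 and Mir122, the miRNA of hepatocytes, at 0.77. Mir203 (0.13) was nearest to Mir149 and Mir451a, both also at 0.13. Mir200c (0.29) was nearest to Mir487b (0.29) and Mir490 (0.30).

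Markers of other cells and regions stood beside these genes at their own levels. The 11 matched miRNAs of neurons and progenitors summed to 23287 CPM in replicate 1 and 24775 CPM in replicate 2. They were led by neuronal Mir137 at 10800 and 11585 CPM. Whether this list sets midbrain apart from other brain regions was not tested. In that list the copies of Mir124a, the defining neuronal miRNA, were at 0.552 to 3.69 CPM. Reads with several mapping places are not in these counts. Against the neuronal list the whole set of 7 epithelial genes was small.

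A list drawn up for other surface epithelia had 4 matched miRNAs (Mir31, Mir184, Mir34a and Mir224). It summed to 162 and 152 CPM in replicates 1 and 2, and 0 of 4 were called in either direction. Much of that sum came from Mir34a (44.3 and 42.6 CPM) and Mir224 (45.2 and 41.5 CPM). Whether these genes mark surface epithelium in this tissue was not tested. Mir31, known from skin and hair follicle, had 67.9 and 65.4 CPM. Mir184, known from cornea and lens, had 4.96 and 2.43 CPM on 17 and 14 reads. With 9.76% of all genes called higher in replicate 2, no call among 4 genes is near that share and says nothing particular to them.

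The summed levels of other lists are given with their counts of called genes, which stand beside the 9.76% of all genes called higher in replicate 2 and the 19.8% called in either direction. No list was tested between the pools, and their part in the ratios of the 7 genes was not tested. Where 10% variation between pools was allowed for, edgeR's exact test called only Mir205 and Mir208b higher in replicate 2 and Mir181a-2 higher in replicate 1. The skeletal and heart muscle list summed to 39.4 and 77.9 CPM. Of its 8 matched genes 5 had a read and were tested, and 1 of these was called higher in replicate 2. That gene was Mir208b (19.0 and 47.6 CPM). No read was counted for the defining Mir133a-1, Mir133a-2 and Mir1a-1, and Mir1a-2 was not matched. Because reads with several mapping places are left out, a count of 0 in these lists does not show absence. The Hox list of hindbrain and spinal cord summed to 1032 and 1513 CPM, led by Mir10a (649 and 917 CPM), with Mir196a-1 at 0. Of its 5 genes with a read, 3 were called higher in replicate 2. The gut and liver list summed to 215 and 236 CPM, with 1 of 5 called higher in replicate 2 (Mir122, 43.2 and 76.1 CPM). In that list Mir192, the highest (88.6 and 85.7 CPM), and Mir194-2 (81.1 and 68.1 CPM) had lower values in replicate 2 and did not pass the test. The choroid plexus and pigment epithelium list summed to 1146 and 1511 CPM, with 1 of 2 called higher in replicate 2, Mir204 (1129 and 1497 CPM). Its other gene, Mir211, had 16.6 and 14.4 CPM and did not pass the test.

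The remaining lists are read against the same shares of all genes. The endocrine one summed to 4741 and 5213 CPM with 3 of 6 called higher in replicate 2. Its highest gene, Mir7b (2573 and 2723 CPM), is also in the neuronal and progenitor list, so these sums overlap. Within the endocrine list Mir375 had 392 and 476 CPM and Mir132 had 777 and 891 CPM, and both were called higher in replicate 2. Whether the genes of this list mark endocrine cells in midbrain was not tested, so the sum is not a measure of such cells. The neuronal and progenitor list had 4 of 11 called higher and 1 called lower in replicate 2. The sensory organ cluster, known from hair cells, retina and olfactory neurons, went the other way, at 1856 and 1410 CPM, with 3 of 3 called higher in replicate 1, led by Mir182 (907 and 628 CPM). The multiciliated list had 1 of 5 called higher in replicate 1 (2845 and 2680 CPM), namely Mir449a, its highest, at 2268 and 2125 CPM. In the endothelial and mural list (31300 and 27436 CPM, with Mir145b at 0), 2 of the 3 genes with a read were called higher in replicate 1. Its highest gene was Mir126a at 24909 and 21568 CPM. The blood list (531 and 527 CPM) and the mesenchyme list (4006 and 3979 CPM) had no called gene among 6 and 5, and their highest genes were Mir223 (161 and 155 CPM) and Mir140 (3692 and 3671 CPM).

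**Figure D5:**
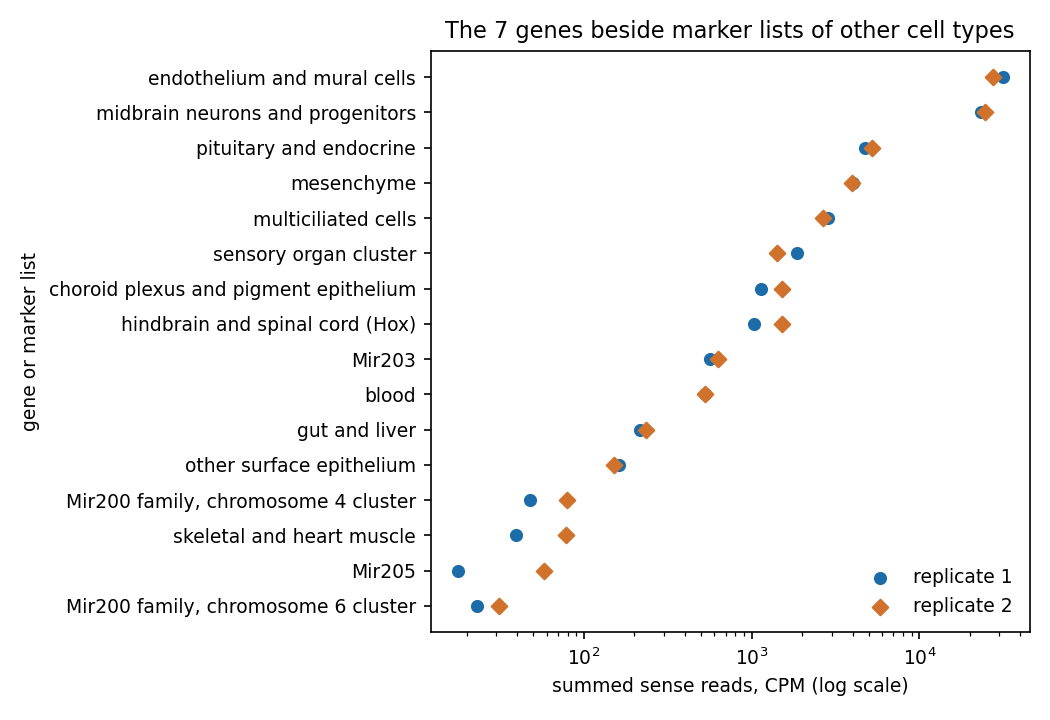
Summed sense reads in CPM on a log axis for Mir203, Mir205, the Mir200 clusters and 12 marker lists, in replicate 1 (blue circles) and replicate 2 (orange diamonds). Mir203 stands between the blood and Hox lists, and Mir205 shows the widest gap between the pools, 17.8 and 57.9 CPM.

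Mir203 was the only one of the 7 with reads on the opposite strand in both libraries, 34 in replicate 1 and 82 in replicate 2. They made up 1.72% (1.19 to 2.39) and 2.20% (1.75 to 2.72) of the reads at its hairpin, 1.96 ± 0.34% (SD, n = 2). Of the other 6, only Mir205 had any, with 0 and 1 read. For Mir429, 0 of 345 reads in replicate 2 allows a share of up to 0.870% by the floor of 3 reads and up to 1.06% by the Clopper-Pearson interval. For Mir200c, 0 of 152 allows up to 1.97% by the floor and 2.40% by the interval. In replicate 2 the interval reached 3.73% for Mir200b, 12.3% for Mir141 and 21.8% for Mir200a. At that depth a share like that of Mir203 could not be told from 0 in them. Among the 317 genes with at least 100 reads on either strand over both libraries, 271 had no opposite read, 15 had a mean share of at least 1%, and 13 had a higher share than Mir203.

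RefSeq annotates miR-203b on that opposite strand. The hairpin of Mir203 is printed with its mature strands in capitals, followed by the mature strands of miR-203b with the seed in capitals, because both genes are read from the same base pairs.
Mir203 hairpin: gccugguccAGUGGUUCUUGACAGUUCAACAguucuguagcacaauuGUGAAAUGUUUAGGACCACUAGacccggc
mmu-miR-203b-3p: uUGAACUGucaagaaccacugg
mmu-miR-203b-5p: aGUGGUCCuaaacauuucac
Each strand of miR-203b occurs exactly in the reverse complement of the Mir203 hairpin. The counts give all reads opposite to the hairpin together, so they were not assigned to a strand of miR-203b. The seed UGAACUG of miR-203b-3p is not the seed UGAAAUG of miR-203-3p.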

How the data were processed

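The authors deposited, per library, read counts per miRNA gene on either, the sense and the opposite strand, without normalization. Per the deposited readme text the assembly was mm10 and the annotation GENCODE M4. The name of the aligner or counter was not given in the sources used here. Of 1973 identifiers 1894 matched GENCODE M21, which gave symbols and positions. The 4 rows that name no gene were left out of totals. They held 54.6% of listed reads in replicate 1 and 56.1% in replicate 2, reads with several mapping places being 37.7% and 35.8%.

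CPM were computed from sense counts. TMM scaling and the exact test with a fixed coefficient of variation came from edgeR 4.0.16, other scaling from DESeq2 1.42.0, and binomial tests and intervals from SciPy 1.17.1. Genes were called at an adjusted p of 0.05. The binomial test was run on simulated counts that held counting error only, which is its own assumption. That run could not check it against spread between pools. Reads are not independent molecules. With 142 of 717 genes called, the counts of the libraries differed beyond counting error, which does not show how independent the pools were. The labels call the pools biological replicates under 1 donor identifier, and p-values measure only the spread of counting.

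The 7 genes and the marker lists were chosen with earlier results of these data known. Genes named besides the 7 are their neighbours in level, the 2 nearest in log2 ratio for genes of at least 10 CPM, and the highest gene of each list. The other marker genes were named after their values were seen. They are the lowest or called ones, those against the direction of their list and those at 0 or not matched. The same holds for Mir181a-2, Mir3101, Mir7064 and miR-203b. Alternatives were other scalings, count columns, denominators, pseudocounts, filters, coefficients of variation and leaving out each replicate.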

Additional observations from a re-analysis of the deposited data

Results flagged for a closer look

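Reads opposite to Mir203, a strand that no level or fold above uses, numbered 34 in replicate 1 and 82 in replicate 2. They drew attention because they lie above the 3 reads that a count of 0 allows, in both libraries. With 1 group of 2 libraries, no gene was checked for a library far from the others.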

How the results depend on the processing

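The ratio of the chromosome 4 to the chromosome 6 cluster (log2 1.20) was 1.34 without replicate 1 and 1.06 without replicate 2, and the ratio of Mir203 to Mir205 (4.23) was 3.45 and 5.00. With counts on either strand they were 1.20 and 4.25. The summed level of the 7 genes, 730 CPM, was 939 CPM with Mir99a, the most counted gene, left out of the total and 401 CPM with reads of several mapping places in the total, since the denominator changed. Without replicate 1 it was 803 CPM and without replicate 2 657 CPM.

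The counts of called genes depended on the error allowed. The 70 genes called higher in replicate 2 and 72 called higher in replicate 1 became 2 and 1 in edgeR's exact test with a coefficient of variation of 10%, also 2 and 1 with the estimated one of 10.2% (chosen after seeing the data), and 0 and 0 with 20%. That estimate took these same 2 libraries as replicates of 1 group, so it is not an independent check of the 10% setting. The 3 called genes of the 7 became 1 and 0 with 10% and 20%. Mir200b passed with filters of 1 and 10 CPM (adjusted p 0.0462 and 0.0329 in the exact binomial test), where fewer genes were tested. A pseudocount of 10 CPM gave the lowest log2 ratio of Mir205, 1.26 of a range to 1.67, and it shrank the low genes most: Mir200a ran from 0.21 to 1.51 and Mir141 from 0.30 to 1.21. It moved the median of the 7 from 0.65 to 0.30, while the other alternatives gave 0.64 to 0.69 (computed after seeing the data). No log2 ratio of the 7 changed sign under the alternatives. Depth limits Mir200a and Mir141, with 3 and 7 reads in replicate 1. No paired analysis was possible because there is 1 group.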
